A study of Arabidopsis thaliana with 21 samples.

Results

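The chloroplast genome transcripts are the 70 loci with an ATCG identifier among the 24100 loci counted in 14-day-old Arabidopsis thaliana seedlings. A locus was a member when it had at least 3 counts in total over the 21 libraries, and all 70 ATCG loci in the data met that minimum, with totals of 17 to 44651 counts. The chloroplast genome encodes core subunits of the photosystems, of the cytochrome b6f complex, of the ATP synthase and of the NADH dehydrogenase-like complex, the large subunit of Rubisco, part of the plastid ribosome and its RNAs, and subunits of a bacterial-type RNA polymerase. That plastid-encoded polymerase needs sigma factors made in the nucleus, and a phage-type polymerase, also made in the nucleus, transcribes a further group of plastid genes. Most chloroplast transcripts carry no polyA tail of the nuclear kind, and in plastids a polyA tail marks an RNA for decay. These libraries were made from polyA-selected RNA, so each level below is the residue of chloroplast RNA that passed the selection, not the chloroplast RNA content of the seedling.

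The libraries came from 7 groups of 3, called biological replicates in the design text: asil1-1 asil2-1, asil1-1 and asil2-1 in the Columbia-0 ecotype, asil1-1 asil2-2, whose labels name both ecotypes, asil2-2 in Landsberg erecta, and the wild types Ler (Landsberg erecta) and Col-0 (Columbia-0). ASIL1 and ASIL2 encode trihelix transcription factors, and the study profiled the mutants against the wild type of their ecotype. Plants were raised on MS medium without sugar under 16 h light at 22 °C, and 5 ug of total RNA went into each library. The sources used here do not give the kind of lesion of each allele or the number of plants in a replicate.

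Between 6.52 M and 28.79 M counts were recorded per library, of which 4194 to 42838 fell on chloroplast loci. Levels below are in CPM, the counts of a locus per 1000000 counts (1 M) of the file total, and 3 counts equal 0.104 to 0.46 CPM, depending on the library's depth. ASIL1 had 4.27 to 9.02 CPM in the 9 libraries labelled with asil1-1, against 29.0 to 46.4 CPM in the other 12 libraries. ASIL2 went against the labels of 3 groups. It had 394 to 487 CPM in the libraries labelled asil2-1 (11.4-fold higher than in Col-0, edgeR adjusted p = 1.33e-09), 136 to 201 CPM in those labelled asil1-1 asil2-1 (4.41-fold higher than in Col-0, adjusted p = 2.86e-07) and 68.9 to 99.7 CPM in those labelled asil1-1 asil2-2 (2.38-fold higher than in Ler, adjusted p = 7.86e-05), against 26.4 to 32.7 CPM in Ler and 32.4 to 44.2 CPM in Col-0. In the asil2-2 libraries it had 20.5 to 30.9 CPM, and no change from Ler was called (log2 fold change -0.38 ± 0.20, adjusted p = 0.268). Where the counted reads lie relative to each lesion is not known, so the ASIL2 count does not check the protein, and every direction given for these groups is that of libraries so labelled.

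Several libraries stood apart from their group. The library labelled asil2-1 replicate 2 held 2344 CPM of chloroplast counts, the most of the 21, and the counts of asil2-1 are therefore given with and without it. The summed level of 19 root markers, genes of root hairs, root cap and endodermis where cells have no green chloroplasts, was 74.9, 93.9 and 22.4 CPM in the 3 Col-0 libraries, against 5.35 to 41.7 CPM in the other 18. Between 1 and 7 of the 19 markers were at 0 in a library, and ESB1, also listed as a marker, was not analysed here. Comparisons with Col-0 therefore compared libraries that also differed in root marker level, and its part in the results was not tested.

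Of the 70 loci, 5 are named by notes in the reference annotation. They are ATCG00430 (photosystem II reaction center protein G), ATCG00530 (CemA-like proton extrusion protein-related), ATCG00660 (ribosomal protein L20), ATCG00670 (plastid-encoded CLP P) and ATCG00750 (ribosomal protein S11). The files and the gene table do not pair the other 65 identifiers with gene names, so these loci are described by count, level and fold change, and only 4 of them are given by identifier. The 4 are ATCG00190, ATCG00540, ATCG00020 and ATCG00630, each of which was called higher in at least 1 comparison and lower in another.

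Counts were concentrated on a few loci. The 8 loci with most counts held 80.3% of the 234812 chloroplast counts of the series, and the locus ranked first, ATCG00020, held 19.0% of them. At the other end, 27 of the 70 loci had a mean under 1 CPM, and 50 of the 70 were listed in all 21 libraries. Each library listed between 60 and 70 of the loci. These ranks are of counts, which grow with transcript length, and lengths were not used here because the identifiers carry none.

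Summed over the 70 loci, the chloroplast level was higher in every library labelled asil1-1 asil2-1 or asil2-1 than in every Col-0 library. The sum was 778, 791 and 735 CPM in replicates 1, 2 and 3 labelled asil1-1 asil2-1, 762, 617 and 522 CPM in asil1-1, and 1288, 2344 and 732 CPM in those labelled asil2-1, against 524, 492 and 516 CPM in Col-0. The asil1-1 libraries overlapped Col-0 at the low end, and the asil2-1 libraries differed among themselves by more than their lowest differed from Col-0. In the Ler set the sum was 1009, 521 and 743 CPM in the libraries labelled asil1-1 asil2-2 and 693, 760 and 807 CPM in asil2-2, against 833, 463 and 544 CPM in Ler. The Ler libraries spread so widely that both mutant groups overlapped them. In bulk tissue, fewer cells of a type and less RNA per cell cannot be told apart, and the sum, as a score over the members, was not tested. As a share of all counts the chloroplast loci made up 0.0463% to 0.234% of a library.

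**Figure D1:**
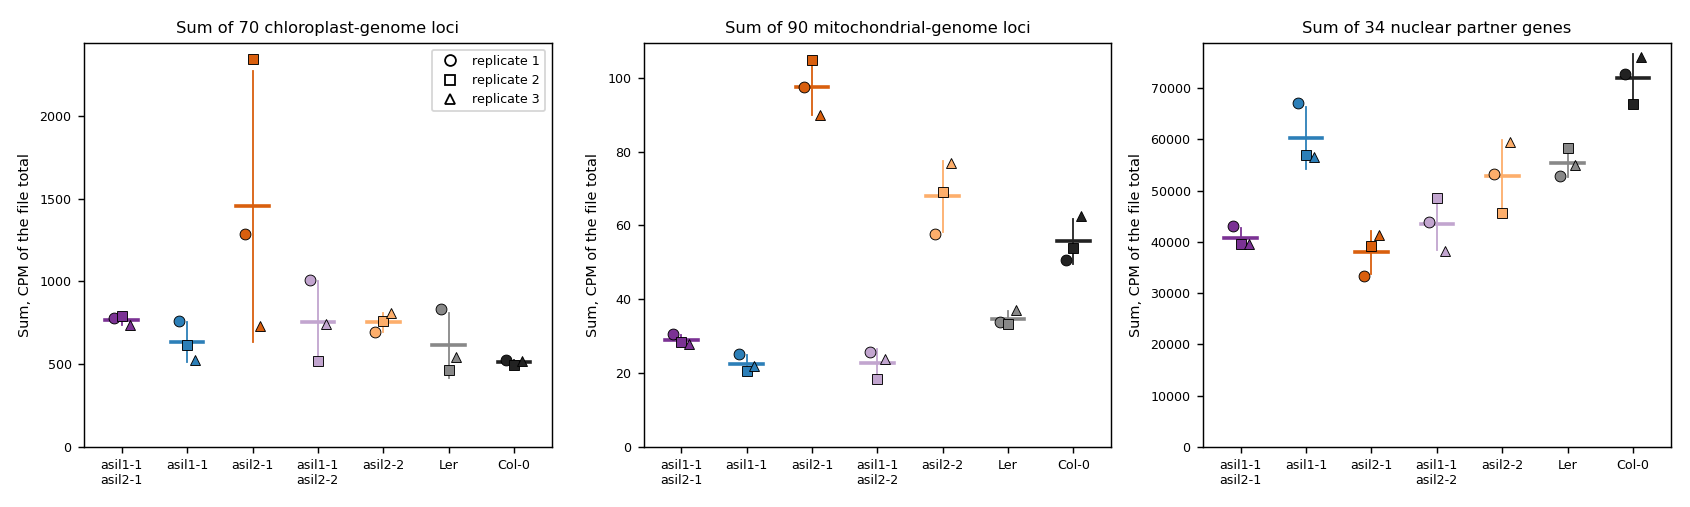
Summed level in each library, in CPM of the file total, of the 70 chloroplast-genome loci (left), the 90 mitochondrial-genome loci (middle) and 34 nuclear genes for partners of the plastid-encoded complexes (right). Markers are replicates, horizontal bars are group means and vertical lines are ± 1 SD (n = 3). The chloroplast sum in Col-0 lies at 492 to 524 CPM, below every asil1-1 asil2-1 and asil2-1 library, while the nuclear partner sum in Col-0, at 66835 to 76076 CPM, lies above them.

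The other organelle genome did not show the same order of groups. The 90 mitochondrial loci summed to 30.4, 28.3 and 27.8 CPM in the libraries labelled asil1-1 asil2-1 and to 25.2, 20.6 and 21.8 CPM in asil1-1, both below the 50.7, 53.8 and 62.5 CPM of Col-0. They summed to 97.5, 105 and 89.8 CPM in the libraries labelled asil2-1, above Col-0. In the asil2-2 libraries they summed to 57.7, 69.1 and 76.8 CPM, against 33.9, 33.2 and 37.2 CPM in Ler. In libraries labelled asil1-1 asil2-2 they summed to 25.7, 18.3 and 23.8 CPM, below every Ler and Col-0 library. Ler itself lay below Col-0. Libraries labelled asil1-1 asil2-1 were thus above Col-0 in chloroplast level and below it in mitochondrial level, and libraries labelled asil2-1 were above it in both. The ratio of the chloroplast to the mitochondrial sum ranged from 8.15 to 39.3 over the 21 libraries.

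The libraries labelled asil2-1 differed widely in the locus ranked first. ATCG00020 had 387, 995 and 82.5 CPM in the libraries labelled asil2-1, against 51, 49 and 75.2 CPM in Col-0. It made up 30.1%, 42.4% and 11.3% of the chloroplast counts in those asil2-1 libraries, against 9.75%, 9.96% and 14.6% in Col-0. Replicates 1 and 2 labelled asil2-1 were far above every other library, and replicate 3 was not. Without this locus the sum was 901, 1349 and 649 CPM in the libraries labelled asil2-1, against 473, 443 and 441 CPM in Col-0, and the groups still did not overlap. The 62 loci below rank 8 showed the same separation, with 204, 302 and 151 CPM in the libraries labelled asil2-1 and 178, 199 and 216 CPM in those labelled asil1-1 asil2-1, against 96.6, 89.3 and 96.2 CPM in Col-0.

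**Figure D2:**
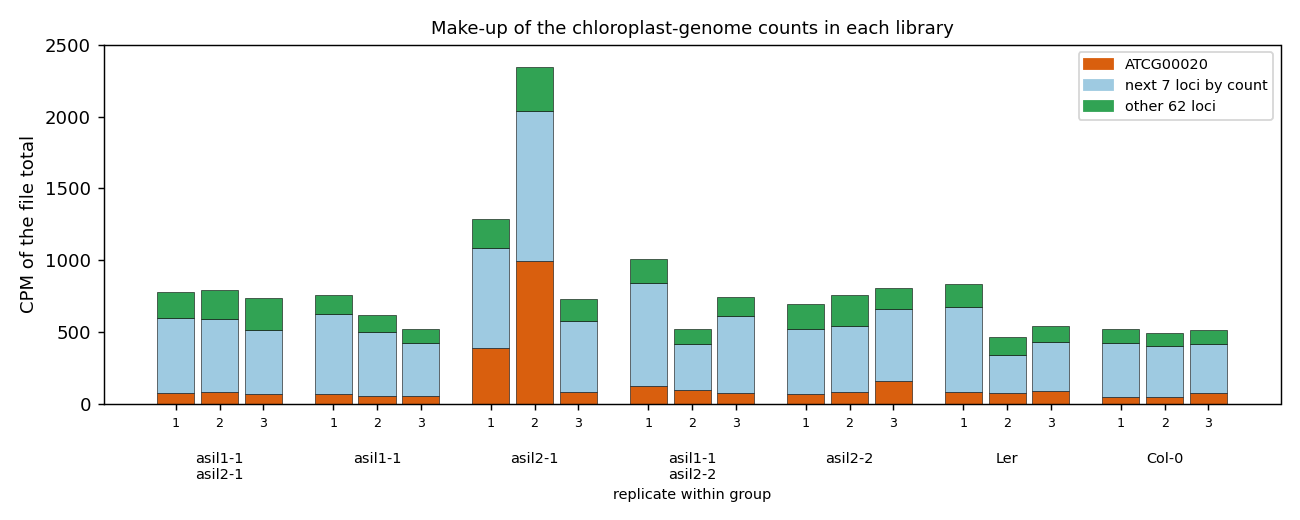
Chloroplast counts of each library in CPM of the file total, stacked as ATCG00020, the next 7 loci by count and the other 62 loci, for replicates 1 to 3 of each group. ATCG00020 reaches 387 and 995 CPM in replicates 1 and 2 labelled asil2-1 and is between 49.0 and 157 CPM in the other 19 libraries.

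Differences of single loci were tested with edgeR's quasi-likelihood test over all 19589 genes that passed its filter on low counts, with Benjamini-Hochberg adjustment and a threshold of 0.05 on the adjusted p. Of the 70 loci, 56 passed that filter. The other 14, with totals of 17 to 136 counts, were not tested. A locus can pass through the groups where it is high, so counts over the 56 describe the loci tested and not the whole chloroplast genome. Log2 fold changes are given ± SE. The comparisons of asil1-1 asil2-1, of asil1-1, of asil2-1, of asil1-1 asil2-2 and of Ler with Col-0 share the 3 Col-0 libraries, and those of asil1-1 asil2-2 and asil2-2 with Ler share the 3 Ler libraries.

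Chloroplast loci were higher in libraries labelled asil2-1 than in Col-0, both among the abundant loci and among the rest. Of the 56 loci tested, 34 rose and 1 fell, where 21.9% of all genes tested rose and 19.3% fell. The median log2 fold change of the 56 was 1.10, against 0.02 over all genes, and 55 of the 56 values were above 0. The 34 loci that rose did so by log2 fold changes of 0.67 to 3.30, with a median of 1.62. Among the 8 loci with most counts 7 rose, and among the other 48 tested 27 rose and 1 fell. All 3 asil2-1 libraries were above all 3 Col-0 libraries for 29 of the 56 loci, where that held for 31.3% of all genes tested, a smaller gap than for the calls. Over all 70 loci, untested ones included, the mean was higher in 67 and lower in 3, and the 14 untested loci summed to 5.97 ± 4.09 CPM in asil2-1 and 2.04 ± 0.175 CPM in Col-0 (SD, n = 3 each).

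These asil2-1 calls rested in part on single libraries. Without replicate 2 labelled asil2-1, 16 of 56 loci were called higher and 1 lower, where 3811 of 19839 genes were higher and 3259 lower. The median log2 fold change of the loci was then 0.77. Without Col-0 replicate 2, 21 of 60 loci were called higher and 1 lower, where 3406 of 19781 genes were higher and 3028 lower. In both fits the gap to all genes in the share called higher was smaller than with all libraries. Set against Col-0 replicate 3 alone, the Col-0 library with the lowest root marker sum, fewer loci and fewer genes as a whole were called. The share of loci called higher was then no longer above that of all genes. The median stayed at 1.18, against 0.05 over all genes.

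ATCG00190 rose in each mutant against the wild type it was set beside, apart from the comparison of asil1-1 asil2-2 with Col-0. In libraries labelled asil2-1 it had 44.6, 40.9 and 37.5 CPM, against 21.5, 17.4 and 15.5 CPM in Col-0. The groups did not overlap, and the level was 2.19-fold higher (log2 1.13 ± 0.18, adjusted p = 7.22e-05). ATCG00540 had 10.4, 13.4 and 8.44 CPM in libraries labelled asil2-1, against 3.93, 3.99 and 4.15 CPM in Col-0. Each mutant library was above the Col-0 libraries by more than the Col-0 spread, and the level was 2.58-fold higher (log2 1.37 ± 0.23, adjusted p = 8.89e-05).

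Of the 5 annotated loci, 2 rose in libraries labelled asil2-1. ATCG00530, the CemA-like locus, whose protein belongs to the chloroplast envelope, had 19.0, 21.5 and 13.8 CPM there, against 7.49, 7.68 and 7.90 CPM in Col-0. It was 2.27-fold higher (log2 1.18 ± 0.23, adjusted p = 0.000464), with no overlap. ATCG00670, the proteolytic subunit of the Clp protease that degrades stromal proteins, had 5.96, 7.44 and 4.54 CPM, against 4.64, 3.40 and 2.96 CPM in Col-0. Here replicate 3 labelled asil2-1 was below Col-0 replicate 1, and the 1.59-fold difference (log2 0.67 ± 0.22, adjusted p = 0.0186) was not called without replicate 2 labelled asil2-1 (log2 0.49), Col-0 replicate 2 (log2 0.59) or Col-0 replicate 3 (log2 0.58), nor in a fit of the compared groups alone (log2 0.62, adjusted p = 0.0813).

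The other 3 annotated loci had no call in libraries labelled asil2-1. ATCG00430 differed by a log2 fold change of 0.18 ± 0.26 (adjusted p = 0.601). Its name, photosystem II reaction center protein G, rests on the annotation notes alone and was not checked here. For the small ribosomal subunit protein S11, ATCG00750, the value was 0.60 ± 0.36 (adjusted p = 0.197). The large subunit protein L20, ATCG00660, had 3 to 27 counts per library in these groups and a value of 0.74 ± 0.65 (adjusted p = 0.373), a precision that could not show a change of this size.

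ATCG00020 was 7.89-fold higher in libraries labelled asil2-1 than in Col-0 (log2 2.98 ± 0.62, adjusted p = 0.0016). The value was log2 1.96 without replicate 2 labelled asil2-1 and 3.48 without replicate 3, and it was called without any 1 of the 6 libraries. The call ended in a fit of the 2 compared groups alone (log2 2.94, adjusted p = 0.0687) and with Col-0 replicate 3 alone for the wild type (log2 2.55, adjusted p = 0.0931). ATCG00630 was the single locus that fell. It had 3, 5 and 17 counts, or 0.271, 0.274 and 1.35 CPM, in libraries labelled asil2-1, against 1.90, 2.04 and 5.24 CPM in Col-0. The groups did not overlap, and the level was 5.22-fold lower (log2 -2.38 ± 0.60, adjusted p = 0.00346).

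**Figure D3:**
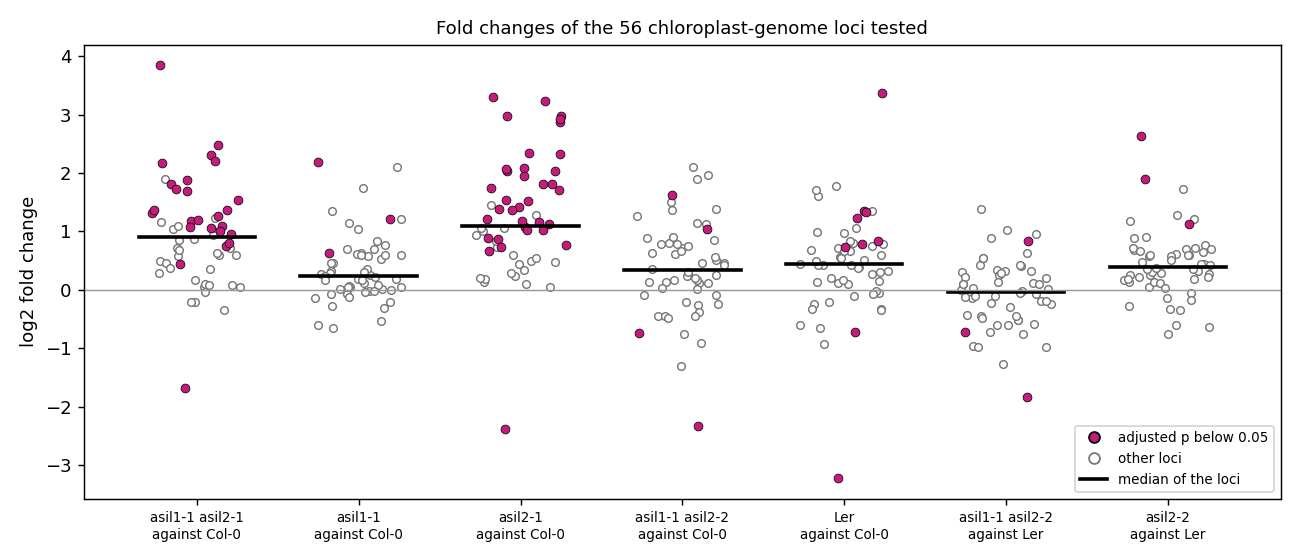
Log2 fold changes of the 56 chloroplast-genome loci tested in the 7 comparisons of a group with a wild type. Each point is a locus, filled points have an edgeR adjusted p below 0.05, and black bars are the medians. The median is 1.10 for asil2-1 against Col-0 and 0.91 for asil1-1 asil2-1 against Col-0, and lies between -0.03 and 0.44 in the other 5 comparisons.

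Chloroplast loci were also higher in libraries labelled asil1-1 asil2-1 than in Col-0, with most of the calls among loci of lower count. Against Col-0, 24 of the 56 loci rose and 1 fell, where 20.5% of all genes tested rose and 18.8% fell. The median log2 fold change was 0.91, against 0.02 over all genes. Of the 8 loci with most counts 2 rose, with a median log2 fold change of 0.32 over the 8. Of the other 48 loci 22 rose and 1 fell, with a median of 1.00. All 3 libraries were above all 3 Col-0 libraries for 35 of the 56 loci, against 31.1% of all genes tested. The 8 loci with most counts held 77.2%, 74.9% and 70.6% of the chloroplast counts in these libraries, against 81.4% to 81.8% in Col-0. Leaving out any 1 of 4 libraries (replicate 3 labelled asil1-1 asil2-1 or a Col-0 replicate) gave 14 or 15 calls. Without Col-0 replicate 2, 13 of 60 loci were called higher, where 3163 of 19781 genes were. Without replicate 3 labelled asil1-1 asil2-1 it was 14 of 60 loci, where 3303 of 19846 genes were called higher. Both gaps were smaller than with all libraries. With Col-0 replicate 3 alone for the wild type, fewer loci and fewer genes as a whole were called. The share of loci called higher was then no longer above that of all genes, and the median was 0.77, against 0.03 over all genes.

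ATCG00190 had 41.1, 44.0 and 44.7 CPM in libraries labelled asil1-1 asil2-1, against the 15.5 to 21.5 CPM of Col-0, and was 2.28-fold higher (log2 1.19 ± 0.18, adjusted p = 4.42e-05). ATCG00540 had 11.4, 10.8 and 10.5 CPM and was 2.57-fold higher (log2 1.36 ± 0.23, adjusted p = 9.94e-05). For both loci the libraries of the groups did not overlap. ATCG00530 had 12.8, 19.4 and 19.2 CPM and was 2.12-fold higher than in Col-0 (log2 1.09 ± 0.23, adjusted p = 0.000995). ATCG00750, ribosomal protein S11, had 2.69, 2.87 and 3.55 CPM, against 1.67, 1.56 and 0.988 CPM in Col-0. It was 2.08-fold higher without overlap (log2 1.05 ± 0.36, adjusted p = 0.0234), on 10 to 48 counts per library, and was not called without Col-0 replicate 3 (log2 0.89), Col-0 replicate 2 (log2 1.10) or replicate 3 labelled asil1-1 asil2-1 (log2 0.94).

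ATCG00630 had 0.52, 1.5 and 0.962 CPM in libraries labelled asil1-1 asil2-1 and was 3.21-fold lower than in Col-0 (log2 -1.68 ± 0.56, adjusted p = 0.0215), a call that ended without Col-0 replicate 3 (log2 -0.97) or replicate 1 or 3 labelled asil1-1 asil2-1 (log2 -1.39 and -1.63). ATCG00020 had 76.7, 83.0 and 67.5 CPM, which overlapped Col-0, with a log2 fold change of 0.29 ± 0.59 (adjusted p = 0.725).

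In asil1-1 few chloroplast loci differed from Col-0. Of the 56 loci 3 rose and none fell, where 8.91% of all genes tested rose and 8.35% fell. Scaling by the library total alone gave 1219 genes higher and 1786 lower over all genes, against 1746 and 1636 with TMM scaling, and left 3 loci called higher. A fit of asil1-1 and Col-0 alone called 5 of 35 loci higher, where 1357 of 18030 genes were higher, so the share of loci was above that of all genes there. In the fit of all 21 libraries the median log2 fold change of the loci was 0.24. ATCG00190 had 29.9, 24.8 and 25.8 CPM in asil1-1, all above the 15.5 to 21.5 CPM of Col-0, and was 1.55-fold higher (log2 0.63 ± 0.18, adjusted p = 0.0238). The ATCG00190 call ended without any 1 of 4 libraries, asil1-1 replicate 1 or 3 and Col-0 replicate 2 or 3 (log2 0.54 to 0.65). No locus was called without asil1-1 replicate 1, asil1-1 replicate 3 or Col-0 replicate 2, and 1 or 2 were called without any 1 of the other 3 libraries. ATCG00540 had 6.55, 5.54 and 5.35 CPM in asil1-1, above the Col-0 libraries, but its log2 fold change of 0.59 ± 0.24 did not pass (adjusted p = 0.0888).

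ATCG00630 and ATCG00530 had levels near those of Col-0 in asil1-1. ATCG00630 had 3.98, 4.18 and 4.36 CPM in asil1-1, within the Col-0 range (log2 0.46 ± 0.51, adjusted p = 0.569). ATCG00530 had 6.11, 6.81 and 6.47 CPM, below the lowest Col-0 library, with a log2 fold change of -0.20 ± 0.25 (adjusted p = 0.626).

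**Figure D4:**
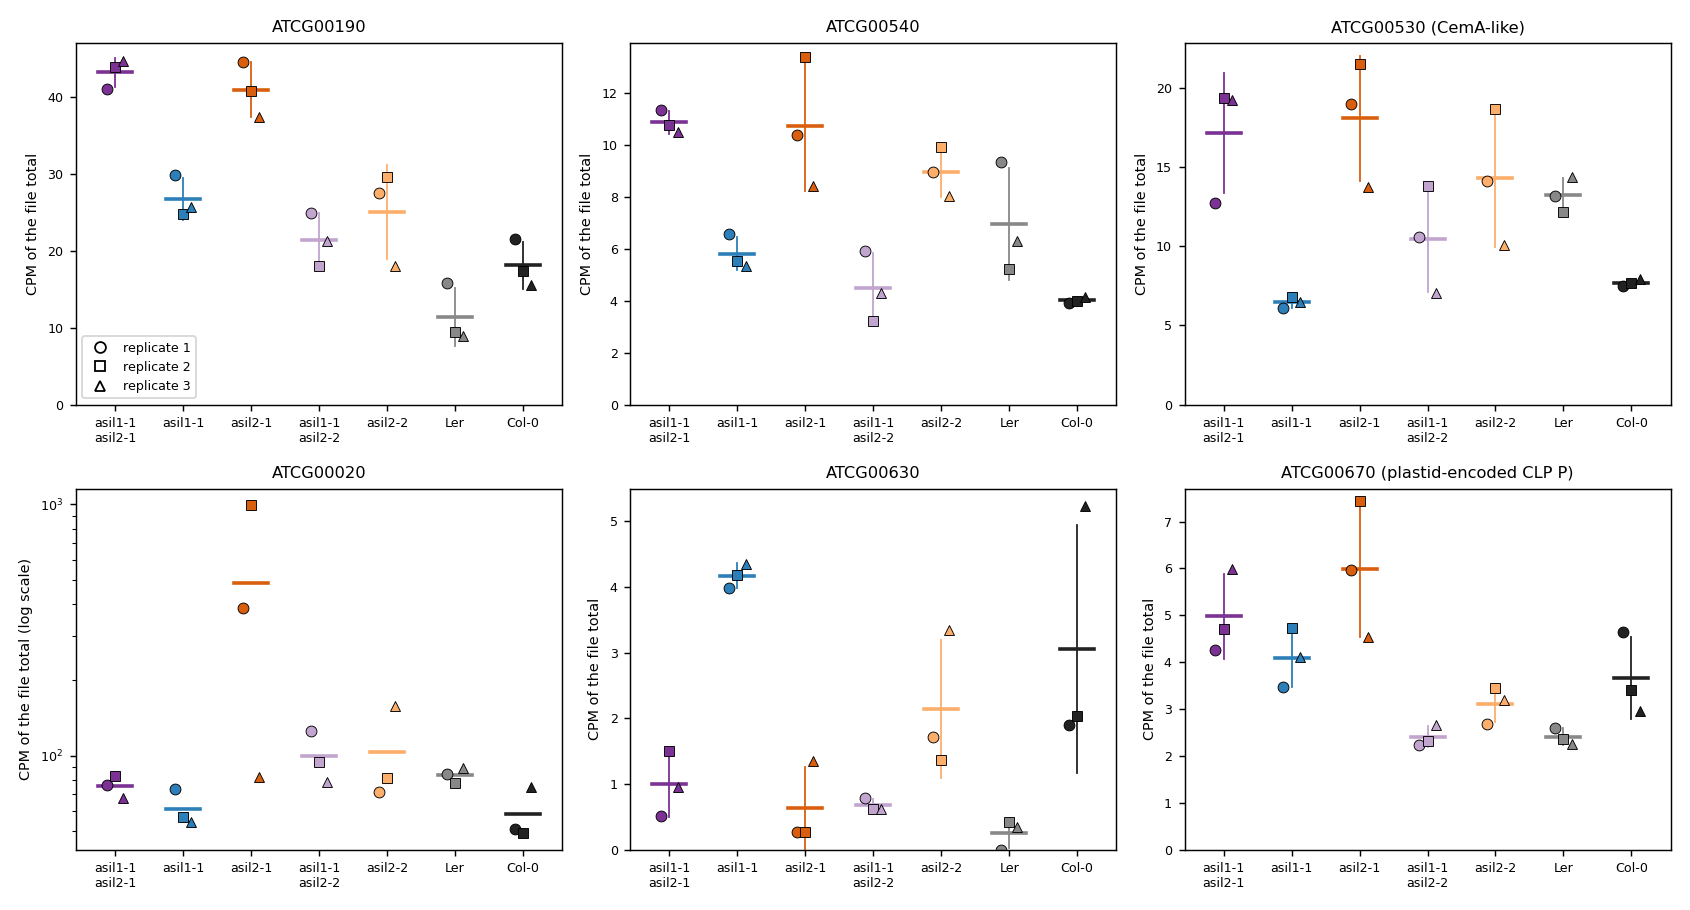
Level in each library, in CPM of the file total, of ATCG00190, ATCG00540, ATCG00530, ATCG00020 (log axis), ATCG00630 and ATCG00670. Markers are replicates, horizontal bars group means and vertical lines ± 1 SD (n = 3, not drawn on the log axis). ATCG00190 averages 43.3 CPM in asil1-1 asil2-1, 41.0 CPM in asil2-1 and 26.8 CPM in asil1-1, against 18.1 CPM in Col-0.

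Set against asil1-1, libraries labelled asil1-1 asil2-1 had higher levels of several loci. Among the 56 loci 9 rose and 1 fell, where 6.21% of all genes tested rose and 9.43% fell. With the library total as the only scaling, the median over all genes was 0.16, with 2953 genes higher and 1291 lower in place of 1217 and 1848. ATCG00530, at 12.8 to 19.4 CPM in libraries labelled asil1-1 asil2-1 and 6.11 to 6.81 CPM in asil1-1, was 2.44-fold higher (log2 1.29 ± 0.23, adjusted p = 0.000614). ATCG00540 was 1.70-fold higher (log2 0.77 ± 0.21, adjusted p = 0.0175) and ATCG00190 was 1.47-fold higher (log2 0.56 ± 0.17, adjusted p = 0.0325). ATCG00630 was 4.42-fold lower (log2 -2.15 ± 0.55, adjusted p = 0.00993). The ATCG00190 call was lost without any 1 of 5 of the 6 libraries, all but asil1-1 replicate 1 (log2 0.49 to 0.60), and the ATCG00540 call without asil1-1 replicate 2 or 3 (log2 0.71 and 0.72). The calls numbered 2 without asil1-1 replicate 3, 4 without asil1-1 replicate 2, and 6 or 3 without replicate 2 or 3 labelled asil1-1 asil2-1.

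Set against asil2-1, libraries labelled asil1-1 asil2-1 differed in 2 of the 56 loci. Both fell, where 3.17% of all genes tested rose and 3.04% fell. ATCG00020 was 6.45-fold lower in asil1-1 asil2-1 (log2 -2.69 ± 0.60, adjusted p = 0.0146), and this was not called without replicate 2 labelled asil2-1 (log2 -1.66), without replicate 1 or 3 labelled asil1-1 asil2-1 (log2 -2.69 and -2.60), or in a fit of the compared groups alone (log2 -2.68, adjusted p = 0.159). Over the 56 loci the median log2 fold change was -0.26, and 0.12 without replicate 2 labelled asil2-1. ATCG00190, ATCG00540 and ATCG00530 differed by log2 fold changes of 0.06 ± 0.17, -0.01 ± 0.20 and -0.09 ± 0.21, with adjusted p of 0.911, 0.994 and 0.879. Leaving out any 1 of the 6 libraries gave 0 or 1 calls, apart from replicate 3 labelled asil2-1, without which there were 5.

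Departure from additivity was tested as asil1-1 asil2-1 minus asil1-1 minus asil2-1 plus Col-0, on the log2 scale. No locus was called by edgeR in the fit of all 21 libraries, where 2.22% of all genes tested were called above additivity and 2.33% below it. At an unadjusted p under 0.05 the count was 12 of 56. No share over all genes was taken at that limit, so whether 12 is more than among all genes is not known. DESeq2 called 2 of 70 loci, where it called 1487 of 24100 genes. An edgeR fit of the 4 groups alone called 4 of 49 loci, all below additivity, where it called 1146 of 18714 genes, 603 of them below. Leaving out 1 library gave 0 to 2 calls, with 2 without replicate 3 labelled asil2-1. The median log2 value was -0.67, with 46 of the 56 values below 0, against -0.03 over all genes. Without replicate 2 labelled asil2-1 the median was -0.24. ATCG00020 had the value -2.81 ± 0.83 (adjusted p = 0.0669).

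In the Landsberg erecta set asil2-2 differed from Ler in few chloroplast loci and in few genes as a whole. Of the 56 loci 3 rose and none fell, where 2.39% of all genes tested rose and 3.57% fell. By library total alone 780 genes were higher and 564 lower, against 468 and 699. The median log2 fold change of the loci was 0.40, with 0.26 without asil2-2 replicate 2 and 0.60 without Ler replicate 1. ATCG00190 had 27.6, 29.6 and 18.1 CPM in asil2-2, against 15.8, 9.45 and 8.99 CPM in Ler. The libraries did not overlap, and the level was 2.19-fold higher (log2 1.13 ± 0.19, adjusted p = 0.00104), the same size as for asil2-1 against Col-0. ATCG00630 had 23, 32 and 70 counts, or 1.72, 1.37 and 3.34 CPM, in asil2-2, against 0, 12 and 5 counts, or 0, 0.417 and 0.354 CPM, in Ler. It was 6.22-fold higher (log2 2.64 ± 0.64, adjusted p = 0.0166), a call that ended without asil2-2 replicate 3 (log2 2.10), Ler replicate 2 (log2 3.10) or Ler replicate 3 (log2 2.70). In libraries labelled asil2-1 it had been lower than in Col-0.

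ATCG00540 and ATCG00530 were not called in asil2-2. ATCG00540 had 8.95, 9.94 and 8.02 CPM in asil2-2, against 9.35, 5.21 and 6.30 CPM in Ler (log2 0.36 ± 0.21, adjusted p = 0.328). ATCG00530 had 14.1, 18.7 and 10.1 CPM, against 13.2, 12.2 and 14.4 CPM in Ler (log2 0.04 ± 0.21, adjusted p = 0.948). Both overlapped Ler. The number of loci called was 5 without Ler replicate 1 and 1 without Ler replicate 2 or 3.

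The effects of the 2 asil2 alleles were compared directly, as the asil2-2 effect against Ler minus the asil2-1 effect against Col-0. The difference was called higher for 1 of the 56 loci and lower for 5, where 10.6% of all genes tested were called higher and 12.1% lower. The median log2 difference was -0.74, against -0.02 over all genes, and 49 of the 56 values were below 0. Without replicate 2 labelled asil2-1 the median was -0.41. ATCG00630 had a difference of 5.02 ± 0.87 (adjusted p = 0.000309). The difference was -1.14 ± 0.31 for ATCG00530 (adjusted p = 0.0119), -1.01 ± 0.31 for ATCG00540 (adjusted p = 0.0221) and -2.72 ± 0.83 for ATCG00020 (adjusted p = 0.0282). The ATCG00020 call ended without any 1 of 6 of the 12 libraries (replicate 2 labelled asil2-1, asil2-2 replicate 1 or 2, Ler replicate 3, Col-0 replicate 1 or 2), at log2 -2.66 to -1.70. It also ended with a block for replicate number (adjusted p = 0.0544) and in a fit of the compared groups alone (adjusted p = 0.0987). The ATCG00540 call ended without any 1 of 4 (replicate 2 labelled asil2-1, asil2-2 replicate 1, Ler replicate 1, Col-0 replicate 2), at log2 -0.96 to -0.80. With Col-0 replicate 3 alone for the wild type, the ATCG00530, ATCG00540 and ATCG00020 differences were not called (adjusted p = 0.136, 0.193 and 0.232). For ATCG00190 the ratio of the effects was 0.999. The alleles sit in different ecotypes, so the allele and the ecotype cannot be told apart in this difference, and the calls numbered 2 without replicate 2 labelled asil2-1 or asil2-2 replicate 1, 3 without Col-0 replicate 1 or 2 and 11 without replicate 3 labelled asil2-1.

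Libraries labelled asil1-1 asil2-2 differed little from Ler in the chloroplast loci. Of the 56 loci 1 rose and 2 fell, where 14.8% of all genes tested rose and 13.5% fell. The median log2 fold change was -0.03, with -0.25 to 0.08 when 1 library was left out, and 0.12 by library total alone, where 4465 genes were higher and 1475 lower in place of 2898 and 2649. ATCG00190 was the locus that rose, with 25, 18.1 and 21.3 CPM in libraries labelled asil1-1 asil2-2, all above the 8.99 to 15.8 CPM of Ler, or 1.78-fold higher (log2 0.83 ± 0.19, adjusted p = 0.00218). ATCG00540 was 1.64-fold lower, with 5.93, 3.21 and 4.31 CPM (log2 -0.72 ± 0.22, adjusted p = 0.0187). Its libraries overlapped those of Ler, and it was not called by library total alone (log2 -0.57), with the compared groups alone (log2 -0.69), or without Ler replicate 1 (log2 -0.51) or replicate 2 or 3 labelled asil1-1 asil2-2 (log2 -0.50 and -0.70). The count was 5 without replicate 2 labelled asil1-1 asil2-2 and 1 without its replicate 3.

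Against Col-0, libraries labelled asil1-1 asil2-2 had 2 loci that rose and 2 that fell, where 16.7% of all genes tested rose and 15.5% fell. By library total alone the median over all genes was 0.15, with 5408 genes higher and 2147 lower in place of 3270 and 3031, and the chloroplast loci then gave 5 higher and 1 lower. DESeq2 called 4 higher and 3 lower. ATCG00630, at 0.796, 0.615 and 0.627 CPM, was below every Col-0 library and 5.03-fold lower (log2 -2.33 ± 0.59, adjusted p = 0.00446), though not called without Col-0 replicate 3 (log2 -1.62). ATCG00670, the Clp protease subunit, had 2.24, 2.32 and 2.67 CPM, against 4.64, 3.40 and 2.96 CPM in Col-0. It was 1.66-fold lower without overlap (log2 -0.73 ± 0.23, adjusted p = 0.0205), and not called by library total alone (log2 -0.60), with the compared groups alone (log2 -0.75), or without Col-0 replicate 1 (log2 -0.55) or replicate 1 or 2 labelled asil1-1 asil2-2 (log2 -0.70 and -0.68). ATCG00190 and ATCG00540 lay close to Col-0 here, with log2 fold changes of 0.11 ± 0.18 and 0.02 ± 0.24 (adjusted p = 0.679 and 0.967). The calls numbered 1 without replicate 1 labelled asil1-1 asil2-2 or Col-0 replicate 1, and 7 without replicate 2 labelled asil1-1 asil2-2.

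The wild types differed from each other in 9 of the 56 chloroplast loci tested, a smaller share than over all genes tested. Against their own wild type, asil1-1 and asil2-2 each had 3 loci called. Over all genes, 7078 of 19589 were called between the wild types, against 3382 for asil1-1 and 1167 for asil2-2. The counts of loci were not themselves tested against each other. In Ler against Col-0, 7 of the 56 loci rose and 2 fell, where 17.9% of all genes tested rose and 18.3% fell. ATCG00190 was 1.65-fold lower in Ler (log2 -0.72 ± 0.19, adjusted p = 0.0065), with Ler replicate 1, at 15.8 CPM, just above Col-0 replicate 3. ATCG00530 was 1.73-fold higher in Ler without overlap (log2 0.79 ± 0.23, adjusted p = 0.0114). ATCG00540 was 1.66-fold higher (log2 0.73 ± 0.23, adjusted p = 0.0179), again without overlap, but not called without Ler replicate 1 (log2 0.53), Col-0 replicate 1 (log2 0.71) or Col-0 replicate 2 (log2 0.69). With Col-0 replicate 3 alone for the wild type, none of the calls of ATCG00190, ATCG00530 and ATCG00540 held (adjusted p = 0.146, 0.207 and 0.252). ATCG00630 was 9.31-fold lower, again without overlap (log2 -3.22 ± 0.65, adjusted p = 0.00056). ATCG00670 had 2.61, 2.36 and 2.26 CPM in Ler, below the Col-0 libraries, with a log2 fold change of -0.59 ± 0.24 that did not pass (adjusted p = 0.054).

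By group mean, ATCG00190 stood at 43.3 ± 1.90 CPM in libraries labelled asil1-1 asil2-1, 41.0 ± 3.57 CPM in those labelled asil2-1, 26.8 ± 2.72 CPM in asil1-1, 25.1 ± 6.15 CPM in asil2-2, 21.5 ± 3.42 CPM in those labelled asil1-1 asil2-2, 11.4 ± 3.80 CPM in Ler and 18.1 ± 3.08 CPM in Col-0 (SD, n = 3 each). The 2 highest groups, the first 2 given, overlapped each other and lay above every other library. The next 3 groups given overlapped each other, and Ler was lowest. ATCG00630 was highest in asil1-1, at 4.17 ± 0.190 CPM, and averaged 2.14 ± 1.05 CPM in asil2-2, against 3.06 ± 1.89 CPM in Col-0. It averaged 0.995 ± 0.491 CPM in libraries labelled asil1-1 asil2-1, 0.633 ± 0.624 CPM in those labelled asil2-1 and 0.679 ± 0.101 CPM in those labelled asil1-1 asil2-2, against 0.257 ± 0.225 CPM in Ler. Among the lower 4 groups, neighbours in level differed by less than the larger of their SDs.

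Nuclear genes that serve the chloroplast genome were read from the same fit. Against Col-0, 20.5% of all genes tested rose and 18.8% fell in libraries labelled asil1-1 asil2-1, 8.91% rose and 8.35% fell in asil1-1, and 21.9% rose and 19.3% fell in those labelled asil2-1, the background for each list below. Of 24 genes for plastid transcription (the phage-type polymerases, sigma factors and polymerase-associated proteins), 16 rose and 1 fell in libraries labelled asil1-1 asil2-1, 17 rose and none fell in asil1-1, and 9 rose and 4 fell in those labelled asil2-1, each against Col-0. Their median log2 fold changes in these comparisons were 0.41, 0.44 and 0.20. SCA3, the phage-type plastid RNA polymerase, had log2 fold changes of 0.74 ± 0.11 in libraries labelled asil1-1 asil2-1 (adjusted p = 3.03e-05), 0.76 ± 0.11 in asil1-1 (adjusted p = 0.000153) and 0.89 ± 0.11 in those labelled asil2-1 (adjusted p = 3.32e-06). SIGF, a sigma factor of the plastid-encoded polymerase, rose on the log2 scale by 0.74 ± 0.11 in libraries labelled asil1-1 asil2-1 (adjusted p = 2.34e-05) and by 0.59 ± 0.11 in those labelled asil2-1 (adjusted p = 0.000201). The asil1-1 libraries thus had 17 plastid transcription genes and 3 chloroplast loci called higher.

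Against Ler, none of the plastid transcription genes rose and 1 fell in asil2-2, where 2.39% of all genes tested rose and 3.57% fell. None rose and 11 fell in libraries labelled asil1-1 asil2-2, where the shares over all genes were 14.8% and 13.5%. Their medians were -0.03 and -0.31 on the log2 scale, and a difference of the list between the ecotype sets was not tested. PDE312, a protein of the plastid transcription complex, was lower in libraries labelled asil1-1 asil2-2 than in Ler (log2 -0.74 ± 0.11, adjusted p = 1.73e-05) and was itself higher in Ler than in Col-0 (log2 1.04 ± 0.11, adjusted p = 1.52e-07). Against Col-0, 7 rose and 1 fell in libraries labelled asil1-1 asil2-2, where 16.7% of all genes tested rose and 15.5% fell, and 15 rose and none fell in Ler, where the shares were 17.9% and 18.3%.

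Of 16 genes for plastid RNA processing, binding and decay, 10 rose and 1 fell in libraries labelled asil1-1 asil2-1, 8 rose and none fell in asil1-1, and 8 rose and 2 fell in those labelled asil2-1, each against Col-0. MRL1, which stabilises the transcript of the large Rubisco subunit, rose on the log2 scale by 1.14 ± 0.15 (adjusted p = 9.99e-06) in libraries labelled asil1-1 asil2-1 and by 0.88 ± 0.15 (adjusted p = 0.000145) in those labelled asil2-1. CSP41A, a chloroplast RNA-binding protein, fell in libraries labelled asil2-1 (log2 -0.70 ± 0.12, adjusted p = 0.000129). None of the 16 changed by the test in asil2-2 against Ler (4 at an unadjusted p under 0.05), and none rose and 7 fell in libraries labelled asil1-1 asil2-2 against Ler. Between the wild types, 10 rose and none fell in Ler against Col-0.

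Against Col-0, the nuclear partners of the plastid-encoded complexes went the other way from the chloroplast loci in libraries labelled asil1-1 asil2-1 or asil2-1. Of 34 genes for photosystem, plastocyanin, ATP synthase, Rubisco small subunit and NADH dehydrogenase-like proteins, none rose and 26 fell in libraries labelled asil1-1 asil2-1, none rose and 6 fell in asil1-1, and none rose and 32 fell in those labelled asil2-1. Their summed level was 43038, 39563 and 39569 CPM in libraries labelled asil1-1 asil2-1 and 33353, 39171 and 41411 CPM in those labelled asil2-1, against 72854, 66835 and 76076 CPM in Col-0. DRT112, a plastocyanin that carries electrons to photosystem I, fell in libraries labelled asil1-1 asil2-1 (log2 -1.97 ± 0.16, adjusted p = 1.58e-08) and in those labelled asil2-1 (log2 -2.08 ± 0.16, adjusted p = 7.06e-09). The photosystem I subunit gene PSAH2 fell in both as well (log2 -2.01 ± 0.17, adjusted p = 4.51e-08 in those labelled asil1-1 asil2-1, and log2 -1.93 ± 0.17, adjusted p = 6.69e-08 in those labelled asil2-1). Against Ler, none rose and 1 fell in asil2-2, and none rose and 28 fell in libraries labelled asil1-1 asil2-2, where the chloroplast loci had a median log2 fold change of -0.03. In Ler against Col-0, 4 of the 34 rose and 14 fell, where 17.9% of all genes tested rose and 18.3% fell. DRT112 was lower in Ler than in Col-0 as well (log2 -1.55 ± 0.15, edgeR adjusted p = 8.89e-08). So was PSAH2 (log2 -1.37 ± 0.17, edgeR adjusted p = 1.82e-06).

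For comparison, 29 mitochondrial loci passed the same filter, and their counts stand against the same shares over all genes. None rose and 11 fell in libraries labelled asil1-1 asil2-1, none rose and 14 fell in asil1-1, and 8 rose and 1 fell in those labelled asil2-1, each against Col-0, and 5 rose and none fell in asil2-2 against Ler. In libraries labelled asil1-1 asil2-2 none rose, and 7 fell against Ler and 15 against Col-0. Between the wild types none rose and 8 fell in Ler against Col-0. The 8 that rose in libraries labelled asil2-1 were 27.6% of the 29, against 21.9% of all genes. Of the root markers 12 were tested. None rose and 7 fell in libraries labelled asil1-1 asil2-1, none rose and 8 fell in asil1-1 and none rose and 6 fell in those labelled asil2-1, against Col-0, while none was called in asil2-2 against Ler (0 of 12 at an unadjusted p under 0.05). In the wild type Ler none rose and 4 fell against Col-0. In libraries labelled asil1-1 asil2-2 none rose and 2 fell against Col-0, and 1 rose and 1 fell against Ler.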

How the data were processed

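The authors deposited, for each of the 21 libraries, raw counts of reads per locus, 1 file a library. The submitters' processing notes name the TAIR10 genome, Bowtie 0.12.7 and edgeR 3.0.8. Not given in the sources used here are the strand, the counting program and how reads were treated that match several places, such as nuclear or repeated copies of chloroplast sequence. Counts were tested with edgeR 4.0.16 in R 4.3.3: filterByExpr, TMM scaling, a robust quasi-likelihood fit with a mean for each of the 7 groups, leaving 14 residual degrees of freedom, and Benjamini-Hochberg adjustment over 19589 genes. The SE of a fold change is its size over the square root of F. Levels are CPM of the file total. The members and gene lists were chosen with earlier results of these data known. The rule for named loci was the called members of smallest p, the 8 of highest level, listed plastid genes, and from each nuclear list up to 3 called genes by smallest p. Its parts that need gene names could not be applied, and grouping by role could not be done, since the gene table has 129 chloroplast genes but 65 of the 70 identifiers are not paired with a name. Identifiers outside the 5 named were limited to 4, and 2 list members whose symbol belongs to another locus were dropped. Replicate libraries differed by more than sampling noise (lowest chi-square per degree of freedom 4.1). Alternatives were RLE or library-total scaling, scaling on nuclear genes, a filter of 1 CPM in 3 libraries or none, DESeq2 1.42.0, leaving out each library, a block for replicate number and fits of only the groups compared.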

Additional observations from a re-analysis of the deposited data

Results flagged for a closer look

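The asil2-2 effect against Ler differed from the asil2-1 effect against Col-0 in 6 of the 56 chloroplast loci tested, by edgeR's test of the difference itself. Over all genes tested 10.6% were called higher and 12.1% lower, a larger share than for the loci. The log2 difference was 5.02 for ATCG00630, which was higher in asil2-2 than in Ler and lower in libraries labelled asil2-1 than in Col-0. It was -2.72 for ATCG00020, -1.14 for ATCG00530 and -1.01 for ATCG00540, which were higher in libraries labelled asil2-1 and had no call in asil2-2. Without 1 library the ATCG00020 difference was not called in 6 of 12 fits, nor with a block for replicate number (adjusted p = 0.0544), and that of ATCG00540 was not called in 4 of 12. ASIL2 itself differed between the alleles by a log2 difference of -3.90 ± 0.28, and the alleles sit in different ecotypes, so allele, ecotype and ASIL2 level cannot be told apart.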

How the results depend on the processing

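The 31 fold changes of named loci followed here were those called in the main fit, a choice that by itself made a change of sign unlikely. None changed sign under any alternative run. Outside the left-out libraries 249 values kept their call and 21 lost it, and with 1 library left out 164 kept it and 46 lost it. With Col-0 replicate 3 alone standing for Col-0, assumed to vary like the other groups, fewer genes were called in every comparison that uses Col-0. Fewer chloroplast loci were called in each of these but non-additivity, which had no call in either fit. Against Col-0, the median log2 fold change of the loci was then 0.17 for asil1-1, 1.18 for asil2-1 and 0.77 for asil1-1 asil2-1. It was 0.25 for asil1-1 asil2-2 and 0.37 for Ler, also against Col-0. For the difference of the asil2 effects it was -0.74, and for non-additivity -0.65. In fits of the compared groups alone fewer loci passed the filter. They called 5 of 35 loci for asil1-1 against Col-0, all higher, where 1357 of 18030 genes were higher. For asil2-1 against Col-0 they called 20 of 42, with 19 higher, where 3482 of 18275 genes were higher. For asil1-1 asil2-1 against asil2-1 they called 0 of 51, where 1339 of 18273 genes were called. For non-additivity it was 4 of 49, where 1146 of 18714 genes were called. DESeq2 called 7 of 70 loci for asil1-1 asil2-2 against Col-0, where it called 6273 of 24100 genes. For non-additivity it called 2 of 70, where it called 1487 genes. Without a filter on low counts 1 of 70 was called for asil1-1 asil2-1 against asil2-1, where 1092 of 24100 genes were called. The cause of these shifts was not tested. With the replicate block 1 of 56 was called for asil1-1 asil2-1 against asil2-1, where 1307 of 19589 genes were called. For the difference of the asil2 effects it was 3 of 56, where 4446 genes were called. Same-numbered libraries were not paired by the labels, 22 of 63 same-number pairs had a correlation of residuals over 0.1, and 12 of 21 libraries correlated best with their own number.

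Leaving out 1 library gave 0 to 2 calls for asil1-1, 17 to 37 for asil2-1, 14 to 19 for asil1-1 asil2-1, 1 to 7 for asil1-1 asil2-2 and 6 to 10 for Ler, each against Col-0, and 1 to 5 for asil1-1 asil2-2 and for asil2-2 against Ler. It gave 2 to 12 for asil1-1 asil2-1 against asil1-1, 0 to 5 against asil2-1, 2 to 11 for the difference of the asil2 effects and 0 to 2 for non-additivity. The loci tested and the calls over all genes also changed with the library left out, so these ranges are not shares. Without ATCG00020 the mean sum was 692 CPM in asil1-1 asil2-1, 650 CPM in asil2-2 and 452 CPM in Col-0, a shift that the removal itself makes. Dividing by nuclear counts in place of the file total moved no mean sum by more than 1 SD. Chloroplast loci made up at most 0.234% of a library, so these totals were nearly equal and this run could hardly differ. A correction for transcript length and a sum without rRNA and tRNA loci were not run, because the identifiers carry neither lengths nor roles. At this depth, the 14 loci not tested had at most 136 counts over all libraries.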
